A study of Mus musculus with 30 samples.

Results

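The genes described here are 10 genes of fatty acid and triglyceride synthesis that were chosen by name, Srebf1, Thrsp, Acly, Me1, Acaca, Fasn, Elovl6, Scd1, Dgat2 and Pnpla3, and all 10 were found among the 36103 genes of the deposited count table. Their polyA RNA was measured in whole gastrocnemius, diaphragm, heart and liver of male mice of 5 weeks on a 129Pas background. Mtm1-/y mice (labelled Mtm1KO), from 1 knock-out line for the X-linked phosphatase gene Mtm1, were set against WT littermates, with 4 WT and 4 Mtm1-/y libraries of gastrocnemius and as many of heart, 4 and 3 of diaphragm, and 3 and 4 of liver. The labels give no treatment for either genotype and do not tie libraries of different tissues to 1 mouse, and p-values measure the spread between libraries of a group.

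De novo lipogenesis turns surplus carbohydrate into fat. Citrate leaves the mitochondrion and is split into acetyl-CoA, which is carboxylated, joined into palmitate with NADPH as the reductant, elongated, desaturated and esterified into triglyceride. Liver and fat are the main sites of the pathway, SREBP-1c and carbohydrate signals switch its genes on after feeding, and muscle fibres use malonyl-CoA mainly to restrain fatty acid oxidation. The genes fall into 4 roles here. Srebf1 and Thrsp are regulators. Acly, Me1, Acaca and Fasn supply acetyl-CoA and NADPH and build the chain. Elovl6 and Scd1 elongate and desaturate it. Dgat2 and Pnpla3 act on triglyceride and the lipid droplet.

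RefSeq promoters (GRCm38.p6) were at hand for 8 of the 10 genes, and Scd1 and Dgat2 had no entry. In the 250 bases before each start, both strands were searched for the sterol response element TCACNCCAC, the E-box CACGTG and the CCAAT box. The sterol response element and the E-box had a match in 0 of the 11 promoters of these genes, against 1.05% and 6.02% of 32851 promoters. With shares this low, 11 promoters are too few for 0 matches to set these genes apart from others. The CCAAT box had a match in 6 of the 11, from 5 genes, against 33.8%. The stretches of 3 promoters from 120 to 21 bases before the start are shown because Fasn makes the fatty acid itself, Thrsp fell in the gastrocnemius and Pnpla3 had another order of tissues than the others. Capitals mark the CCAAT box, as CCAAT or, on the other strand, ATTGG, and 2 of the matches of Fasn overlap.
Fasn (chr11:120824568-120824667, minus strand): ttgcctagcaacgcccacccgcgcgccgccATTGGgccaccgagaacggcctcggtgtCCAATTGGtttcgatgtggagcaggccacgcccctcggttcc
Thrsp (chr7:97417571-97417670, minus strand): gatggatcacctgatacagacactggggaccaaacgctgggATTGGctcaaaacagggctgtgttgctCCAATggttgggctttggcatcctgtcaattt
Pnpla3 (chr15:84167696-84167795, plus strand): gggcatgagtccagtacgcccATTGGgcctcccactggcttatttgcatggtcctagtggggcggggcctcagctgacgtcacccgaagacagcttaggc
A match is a run of letters and was not tested as a site.

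Levels are given in CPM, counts relative to the TMM-scaled total of the library within a tissue, or per length in RPKM (CPM scaled over the 15 WT libraries and divided by the summed exon length in kb). Libraries held 24873817 to 44289343 counts. Mtm1 measured 12.5 to 31.7 CPM in WT and 3.37 to 6.39 CPM in Mtm1-/y libraries, without overlap in any tissue. The hepatocyte gene Alb stood between 294 and 33827 CPM in the diaphragm, and WT diaphragm 1, 2 and 4 and Mtm1-/y diaphragm 2 were those above 10000 CPM. The library WT heart 1 was the highest heart library for 7 of the 10 genes. In whole tissue, fewer cells of a type and less RNA per cell cannot be told apart. Skeletal muscle markers summed to 166413 to 197631 CPM in WT gastrocnemius and 48519 to 72823 CPM in WT diaphragm, cardiomyocyte markers to 47624 to 70299 CPM in WT heart and hepatocyte markers to 168069 to 188080.0 CPM in WT liver, so each tissue carried its own markers.

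In WT mice most of the genes were highest in the liver, and Pnpla3 was lowest there. By mean RPKM, 7 of the 10 genes were highest in liver, Fasn and Pnpla3 in diaphragm and Me1 in gastrocnemius. In the fit of the 15 WT libraries, liver was higher than gastrocnemius for 8 genes (background 37.4% of all genes) and lower for Pnpla3 (background 42.1%). Against the heart, liver was higher for 9 genes (background 35.6%) and lower for Pnpla3 (background 40.8%). The median log2 difference of the 10 genes of liver was 3.34 against gastrocnemius and 2.56 against heart, and that of all genes was -0.10 and -0.13.

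The regulators came first in liver. Srebf1, the gene of the SREBP-1 transcription factors (chr11:60199089-60222581, mm10), measured 33.2 ± 4.32 RPKM (SD, n = 3) in liver, 15.0 ± 5.57 (n = 4) in diaphragm, 11.1 ± 1.73 (n = 4) in gastrocnemius and 5.31 ± 0.828 (n = 4) in heart. Diaphragm and gastrocnemius did not differ beyond their spread (adjusted p = 0.134), while the steps on either side passed. Thrsp (Spot 14, a nuclear protein induced by thyroid hormone and carbohydrate, chr7:97412938-97417730) measured 173 ± 178 RPKM in liver, where WT liver 1 stood far above the other two, 76.8 ± 43.9 in diaphragm, 14.4 ± 2.86 in gastrocnemius and 12.4 ± 5.84 in heart. For Thrsp, neither liver and diaphragm (adjusted p = 0.0852) nor gastrocnemius and heart (adjusted p = 0.747) differed beyond their spread.

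The genes of precursor supply and chain building had 2 patterns. Acly (ATP citrate lyase, which makes cytosolic acetyl-CoA, chr11:100476353-100528000) measured 52.6 ± 11.3 RPKM in liver, 38.7 ± 15.0 in diaphragm, 12.2 ± 4.74 in heart and 6.15 ± 0.335 in gastrocnemius. Acaca (acetyl-CoA carboxylase, which makes malonyl-CoA, chr11:84129672-84401651) was low per length, at 2.67 ± 0.566 RPKM in liver, 2.25 ± 0.869 in diaphragm, 0.386 ± 0.193 in heart and 0.374 ± 0.0224 in gastrocnemius. Fasn (fatty acid synthase, chr11:120805846-120824547) measured 78.8 ± 30.6 RPKM in diaphragm, 47.9 ± 22.0 in liver, 12.1 ± 10.1 in heart and 4.0 ± 0.34 in gastrocnemius. Liver and diaphragm could not be separated for any of these 3 genes (adjusted p = 0.215, 0.51 and 0.218), and all 3 were above heart in the diaphragm. The diaphragm means include WT diaphragm 1, 2 and 4, which held Alb above 10000 CPM, and comparisons without them are given below. Me1 (cytosolic malic enzyme, which yields NADPH, chr9:86581371-86695953) went another way, with 67.7 ± 8.69 RPKM in gastrocnemius, 53.6 ± 13.1 in liver, 32.8 ± 7.10 in diaphragm and 22.3 ± 3.19 in heart. Gastrocnemius and liver did not differ beyond their spread for Me1 (adjusted p = 0.147), and gastrocnemius exceeded heart by 1.60 on the log2 scale (adjusted p = 6.7e-06).

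Elongation and desaturation showed wide steps. Elovl6 (which elongates palmitate to stearate, chr3:129532355-129638495) measured 11.9 ± 4.82 RPKM in liver, 4.30 ± 2.39 in diaphragm, 0.558 ± 0.491 in heart and 0.443 ± 0.158 in gastrocnemius. Scd1 (the desaturase that makes oleate from stearate, chr19:44394455-44407879) was the most abundant of the 10 genes per length in liver, at 1375 ± 916 RPKM, with 482 ± 294 in diaphragm, 38.8 ± 42.0 in heart and 23.9 ± 8.05 in gastrocnemius. Heart and gastrocnemius could not be separated for Elovl6 (adjusted p = 0.659) or Scd1 (adjusted p = 0.396), and for Scd1 liver and diaphragm could not either (adjusted p = 0.0748).

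The triglyceride genes shared the order of diaphragm, heart and gastrocnemius and differed in the place of liver. Dgat2, which catalyses the last step of triglyceride synthesis (chr7:99153658-99182719), stepped down from 220.4 ± 17.8 RPKM in liver to 74.9 ± 18.9 in diaphragm, 39.7 ± 4.82 in heart and 7.80 ± 0.819 in gastrocnemius, and every step passed. Pnpla3, a lipid droplet protein with hydrolase and transacylase activity (chr15:84167837-84187236), measured 7.39 ± 0.791 RPKM in diaphragm, 1.81 ± 0.821 in heart, 1.63 ± 0.26 in gastrocnemius and 0.258 ± 0.144 in liver. The log2 difference of liver from gastrocnemius was -2.59 (standard error 0.42, adjusted p = 5.1e-05), from heart -2.73 (standard error 0.41, adjusted p = 3.2e-05) and from diaphragm -4.77 (standard error 0.43, adjusted p = 2.4e-07), while heart and gastrocnemius did not differ beyond their spread (adjusted p = 0.72). Of the 1548 exonic bases of Pnpla3, 105 overlap the gene Gm49513 on the same strand, so the count of reads there is uncertain.

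**Figure D1:**
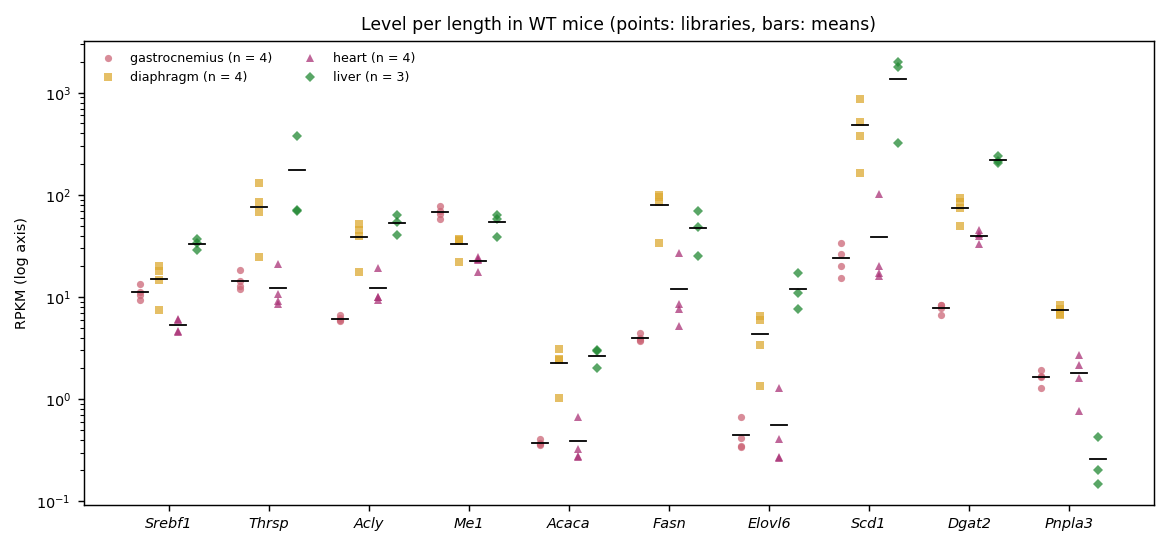
Level per length of the 10 genes in WT libraries, in RPKM on a log axis. Points are libraries, coloured and shaped by tissue (4 of gastrocnemius, diaphragm and heart, 3 of liver), and black bars are means; Pnpla3 is lowest in liver, where the 9 other genes are highest or second highest by mean.

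The WT diaphragm levels move with a few libraries. Against gastrocnemius, diaphragm was higher for 8 genes (background 30.6%) and lower for Me1 (background 23.8%), liver was higher than diaphragm for 4 genes (background 35.5%) and lower for Pnpla3 (background 40.6%), and heart was lower than diaphragm for all 10 (background 29.6%). Heart was higher than gastrocnemius for Acly, Fasn and Dgat2 (background 32.6%) and lower for Srebf1 and Me1 (background 28.7%). Without WT diaphragm 1, 2 and 4, which leaves WT diaphragm 3 as a lone library assumed to vary like the other groups, liver and diaphragm differed for 8 genes in place of 5, where 5533 genes were higher and 6715 lower of all 18871 tested. Heart was then lower than diaphragm for 2 genes, Acaca and Pnpla3, in place of 10, as were 2689 of all genes. Between diaphragm and gastrocnemius the log2 difference of Thrsp was then 0.82 (standard error 0.75) in place of 2.41. That of Elovl6 was 1.66 (standard error 0.68) in place of 3.27. Pnpla3 per library in the WT diaphragm was 15.1, 12.3, 12.4 and 13.9 CPM, and WT diaphragm 3, the library with the least Alb, lay inside the range of the other three. Without WT heart 1, Fasn no longer passed between heart and gastrocnemius, with a log2 difference of 0.85 (standard error 0.37, adjusted p = 0.0633).

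In the Mtm1-/y gastrocnemius, 3 of the 10 genes fell and none rose. Both regulators and malic enzyme were lower, while the remaining enzymes of the chain gave no call. The calls, at an adjusted p under 0.05 in edgeR, stand against a background of 14.9% of all genes that fell and 14.1% that rose in this tissue, and the median log2 fold change was 0.14 over the 10 genes and 0.02 over all genes. DESeq2 called the same 3 genes. None of the 3 had an absolute log2 fold change over 1, and in 1 fit of all 30 libraries, which share 1 estimate of the spread, Me1 alone passed. In that fit 1525 genes rose and 1400 fell of all 18498.

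Srebf1 measured 53.8, 68.4, 57.7 and 47.2 CPM in WT gastrocnemius 1 to 4 and 45.1, 34.3, 39.2 and 27.3 CPM in the Mtm1-/y libraries. Every Mtm1-/y library was below every WT library, with a log2 fold change of -0.64 (standard error 0.16, adjusted p = 0.0136). Of the exonic bases of Srebf1, 66 overlap Mir6922 on the same strand and 109 overlap Rai1 on the other. Thrsp measured 36.9, 24.0, 29 and 25.1 CPM in WT and 14.3, 18.4, 18.5 and 16.3 CPM in Mtm1-/y libraries, again without overlap, with a log2 fold change of -0.77 (standard error 0.14, adjusted p = 0.00334). Me1 measured 203, 274, 230.3 and 239 CPM in WT and 137, 129, 126 and 122 CPM in Mtm1-/y libraries. The Mtm1-/y libraries of Me1 lay close together and all under the WT range, and the log2 fold change was -0.88 (standard error 0.09, adjusted p = 0.000262). Groups without overlap in this direction made up 16.0% of all genes.

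The enzymes between acetyl-CoA and oleate had log2 fold changes at or above 0 that did not pass. Fasn measured 44.8, 38.0, 37.1 and 39.4 CPM in WT and 74.9, 28.3, 67.0 and 39.3 CPM in Mtm1-/y libraries, a log2 fold change of 0.40 (standard error 0.26, adjusted p = 0.281). Scd1 measured 117, 90.1, 68.0 and 150.0 CPM in WT and 289, 79.8, 203 and 161 CPM in Mtm1-/y libraries, a log2 fold change of 0.79 (standard error 0.35, adjusted p = 0.121). Mtm1-/y gastrocnemius 2 was the lowest of its group for both, and without it both passed, with log2 fold changes of 0.61 (standard error 0.19, adjusted p = 0.0467) for Fasn and 1.05 (standard error 0.27, adjusted p = 0.0229) for Scd1. Elovl6 stood at 1.98 to 3.95 CPM in WT and, but for Mtm1-/y gastrocnemius 3 at 11.3 CPM, at 2.36 to 3.36 CPM in Mtm1-/y libraries, with a log2 fold change of 0.90 (standard error 0.51, adjusted p = 0.211) that was 0.08 without that library. Acaca had values of 5.45 to 6.32 CPM in WT and 6.11 to 7.91 CPM in Mtm1-/y libraries and a log2 fold change of 0.28 (standard error 0.11, adjusted p = 0.0911). Acly had values of 28.1 to 31.5 and 25 to 38.9 CPM, and a log2 fold change of 0.00 (standard error 0.13, adjusted p = 0.989).

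The triglyceride genes gave no call in the gastrocnemius. Dgat2 ranged over 18.6 to 23.5 CPM in WT and 18.9 to 40.1 CPM in Mtm1-/y libraries, with a log2 fold change of 0.27 (standard error 0.21, adjusted p = 0.357). Pnpla3 measured 2.70, 1.80, 2.34 and 2.35 CPM in WT and 0.983, 1.69, 2.20 and 0.781 CPM in Mtm1-/y libraries, with a log2 fold change of -0.70 (standard error 0.31, adjusted p = 0.117). Mtm1-/y gastrocnemius 3 lay within the WT range of Pnpla3, and without it the gene passed at -1.0 (standard error 0.28, adjusted p = 0.0269).

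Fat cell and fibre type markers changed in the same tissue. Of 12 white adipocyte markers, 8 rose and none fell, their summed level was 239 to 361 CPM in WT and 358 to 537 CPM in Mtm1-/y libraries, and Adipoq (adiponectin) measured 5.48, 5.25, 3.54 and 13.6 CPM against 21.6, 14.0, 20.9 and 21.9 CPM. Fabp4 and Cfd, the most abundant of the list, had log2 fold changes of 0.44 (standard error 0.11, adjusted p = 0.0117) and 1.64 (standard error 0.46, adjusted p = 0.0245). None of these markers was at 0 in a gastrocnemius library. Of 5 brown adipocyte markers 2 rose (Cidea and Dio2), with sums of 4.31 to 5.69 and 7.16 to 15.9 CPM, and Lhx8 was at 0 in 3 WT libraries and 1 Mtm1-/y library. Of 6 skeletal muscle markers 5 fell, among them Acta1 (-0.75 on the log2 scale) and Myh4 (-1.0), and Myh2 rose (0.93). Of 15 hepatocyte markers Cyp2e1 rose and Tat and Ahsg fell, while 13 of the 15 had a log2 fold change below 0, 13 reached an unadjusted p under 0.05 and the median was -1.89. Their sums were 64.6 to 149.7 CPM in WT and 35.3 to 122 CPM in Mtm1-/y libraries, Alb measured 61.0, 30.7, 49.1 and 17.9 and 6.02, 3.96, 34.3 and 2.40 CPM, and Ambp was at 0 in 1 Mtm1-/y library. Of 6 cardiomyocyte markers 4 were tested, 2 rose and 1 fell, with sums of 6294 to 7171 CPM in WT and 584 to 2291 CPM in Mtm1-/y libraries. Myl7 of that list was at 0 in 3 WT and 4 Mtm1-/y libraries and Nppa in 4 WT libraries. With a covariate for white adipocyte markers, their mean log2 CPM, the fold change of Me1 was -0.84 (standard error 0.16, adjusted p = 0.0288), and neither Srebf1 at -0.39 (standard error 0.28, adjusted p = 0.47) nor Thrsp at -0.64 (standard error 0.25, adjusted p = 0.181) passed. Fasn, Elovl6, Scd1 and Dgat2 were below 0 in that fit, with standard errors of 0.37 to 0.97. Most calls of the tissue were lost there, with 372 genes higher and 400 lower of all 15456, in place of 2173 and 2306. The part of fat, fibre types and hepatocyte RNA in these results was not tested beyond this covariate.

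The rest of the pathway was mixed in the gastrocnemius. Of 40 further genes in 4 lists, 34 were tested, 9 rose (background 14.1% of all genes) and 6 fell (background 14.9%). Among regulators, the nuclear receptor gene Rxra fell by 0.50 on the log2 scale (adjusted p = 0.00123), Mlxipl (ChREBP, the carbohydrate-responsive factor) fell by 0.44 (standard error 0.10, adjusted p = 0.0109), and Mid1ip1, a partner of Thrsp, rose by 0.51 (standard error 0.12, adjusted p = 0.0101). Among suppliers of precursors and NADPH, mitochondrial Me3 fell by 0.60 (adjusted p = 0.00037), while Pgd of the pentose phosphate pathway rose by 0.92 (standard error 0.12, adjusted p = 0.000627) and mitochondrial Me2 by 1.00 (standard error 0.15, adjusted p = 0.00137). Acacb, the carboxylase isoform at the mitochondrion, fell by 0.46 (standard error 0.09, adjusted p = 0.00475), and Elovl1 and Hsd17b12 of chain elongation rose by 0.45 and 0.45. Among genes of glycerolipid assembly, Agpat2 rose by 0.75 (standard error 0.12, adjusted p = 0.0014), Lpin2 by 0.79 (standard error 0.16, adjusted p = 0.00471) and Dgat1 by 0.39 (standard error 0.12, adjusted p = 0.0338), while Lpin1 fell by 0.53 (standard error 0.15, adjusted p = 0.0236). Of 12 tested genes of cholesterol synthesis, which the related factor SREBP-2 drives, Mvd rose by 0.72 (standard error 0.11, adjusted p = 0.00152) and Dhcr7 fell by 0.50 (standard error 0.12, adjusted p = 0.0106).

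**Figure D2:**
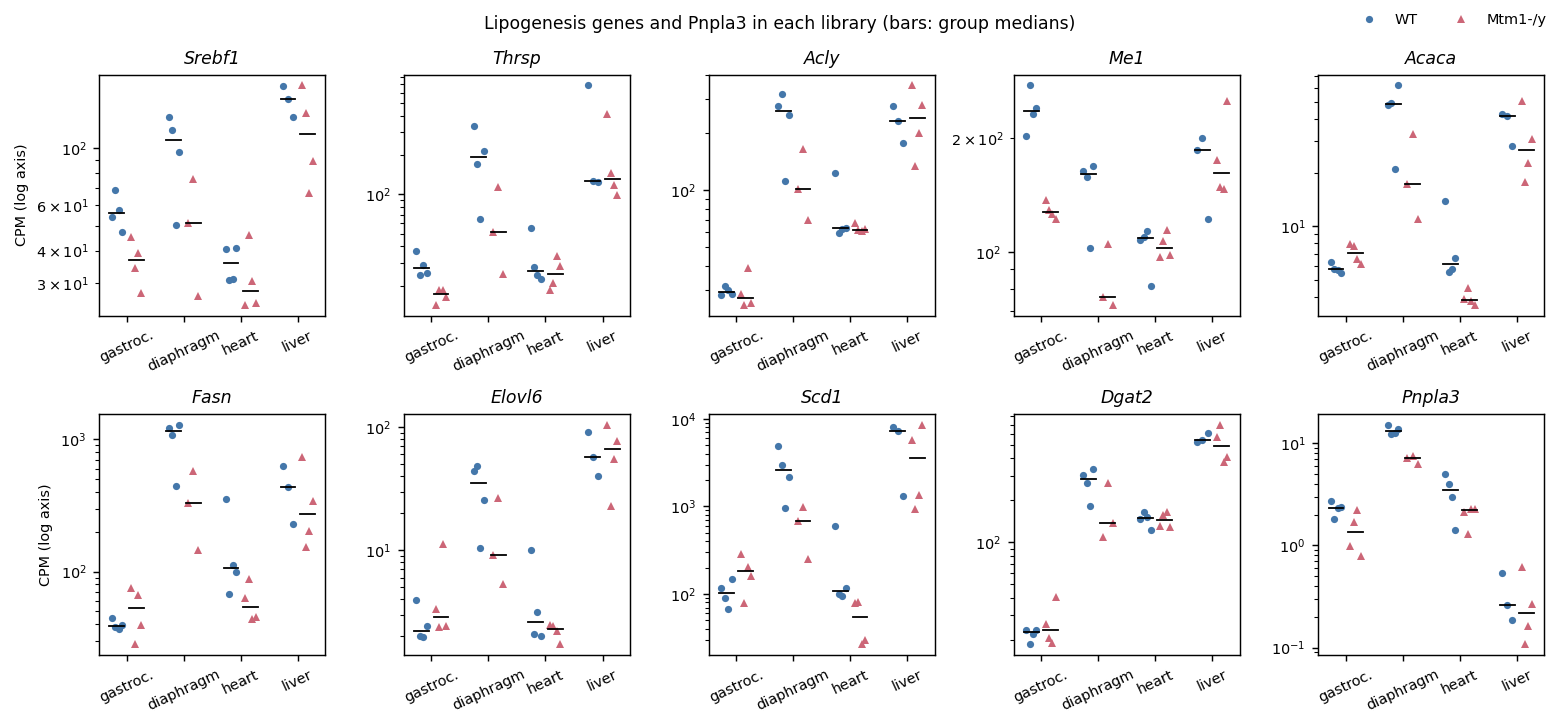
CPM of each of the 10 genes in all 30 libraries, on log axes that differ between panels, with WT as blue circles, Mtm1-/y as red triangles and group medians as black bars. Srebf1, Thrsp and Me1 separate the genotypes in gastrocnemius, Pnpla3 does so in diaphragm and Acaca and Scd1 in heart, and the liver groups overlap for every gene.

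In the diaphragm, none of the 10 genes passed in edgeR although all 10 had a negative log2 fold change, against 51.8% of all genes. The median was -1.11, against -0.01 over all genes. At an unadjusted p under 0.05 stood 7 of the 10 (background 10.8%), and DESeq2 called Me1, Scd1 and Pnpla3 lower (background 0.670%). In this tissue 0.0119% of all genes were called by edgeR, and the common coefficient of variation was 0.394, against 0.171 in the gastrocnemius.

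Pnpla3 was the one gene without overlap between the genotypes. It measured 15.1, 12.3, 12.4 and 13.9 CPM in WT diaphragm 1 to 4 and 7.12, 7.42 and 6.19 CPM in Mtm1-/y diaphragm 1, 2 and 4. All 3 Mtm1-/y libraries lay below all 4 WT libraries, as 4.57% of genes did, and the log2 fold change was -0.96 (standard error 0.13, adjusted p = 0.264) in edgeR, with an adjusted p of 3.4e-06 in DESeq2. Without Mtm1-/y diaphragm 2 it passed in edgeR as well, at -1.01 (standard error 0.15, adjusted p = 0.0479).

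The other 9 genes overlapped. Scd1 had the widest difference, with 4916, 2951, 963 and 2181 CPM in WT and 675, 972 and 248 CPM in Mtm1-/y libraries and a log2 fold change of -2.12 (standard error 0.67, adjusted p = 0.351). WT diaphragm 3 lay below Mtm1-/y diaphragm 2 for Scd1 and above the other two. Fasn measured 1216, 1087, 446 and 1291 CPM in WT and 333, 573 and 146 CPM in Mtm1-/y libraries, with a log2 fold change of -1.53 (standard error 0.54, adjusted p = 0.397). Me1 measured 163, 157, 103 and 168 CPM in WT and 75.9, 105 and 72.7 CPM in Mtm1-/y libraries, with a log2 fold change of -0.81 (standard error 0.22, adjusted p = 0.294). For Fasn and Me1 alike, 3 WT libraries were above all Mtm1-/y libraries and WT diaphragm 3 fell among them.

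Log2 fold changes of the regulators were -0.95 (standard error 0.44, adjusted p = 0.505) for Srebf1, with 50.1 to 132 CPM in WT and 26.7 to 75.9 CPM in Mtm1-/y libraries, and -1.63 (standard error 0.68, adjusted p = 0.456) for Thrsp, with 64.3 to 332 and 24.4 to 114 CPM. Acly had -1.09 (standard error 0.43, adjusted p = 0.429) and Acaca -1.13 (standard error 0.47, adjusted p = 0.458). Elovl6, at 10.5 to 48.8 CPM in WT and 5.33 to 26.6 CPM in Mtm1-/y libraries, had -1.25 (standard error 0.70, adjusted p = 0.602), and Dgat2 had -0.66 (standard error 0.35, adjusted p = 0.579). WT diaphragm 3 was the lowest WT library for 9 of the 10 genes, Mtm1-/y diaphragm 2 the highest of its group for all 10 and Mtm1-/y diaphragm 4 the lowest for 9.

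Hepatocyte markers varied over the same diaphragm libraries, with the lowest level in WT diaphragm 3 and the highest in Mtm1-/y diaphragm 2. Alb measured 26579, 17699.9, 294 and 19262 CPM in WT diaphragm 1 to 4 and 1685, 33827 and 565 CPM in Mtm1-/y diaphragm 1, 2 and 4, and the 15 hepatocyte markers summed to 702 to 49347 CPM in WT and 1117 to 63878 CPM in Mtm1-/y libraries, with 0 of 15 called, 15 below 0 in log2 fold change and none at 0 counts. In WT diaphragm 3 Alb was at 0.309% of its mean WT liver level, while Fasn was at 104% of the liver level there, Acaca at 56.3%, Acly at 48.9% and Scd1 at 17.4%. In Mtm1-/y diaphragm 2 Alb was at 35.5% of the liver level, and Fasn at 133%. Pnpla3 was above the liver level in every diaphragm library. These percents set CPM scaled within the diaphragm against CPM scaled within the liver, which are different scales. Mean WT liver Fasn was 431 CPM scaled within the liver and 524 CPM scaled over the 15 WT libraries. On that joint scale, mean WT diaphragm Fasn was 863 CPM.

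Splitting the libraries at 10000 CPM of Alb leaves 1 WT library on the low side and 1 Mtm1-/y library on the high side, so no test was run within either. With the hepatocyte marker score as a covariate, edgeR called 4 of the 10 in place of 0, and 22 genes higher and 19 lower of all 16796 in place of 2, with log2 fold changes of -0.69 (standard error 0.09, adjusted p = 0.0451) for Me1, -0.93 (standard error 0.13, adjusted p = 0.0497) for Acaca, -1.32 (standard error 0.17, adjusted p = 0.043) for Fasn and -0.92 (standard error 0.12, adjusted p = 0.043) for Pnpla3.

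**Figure D3:**
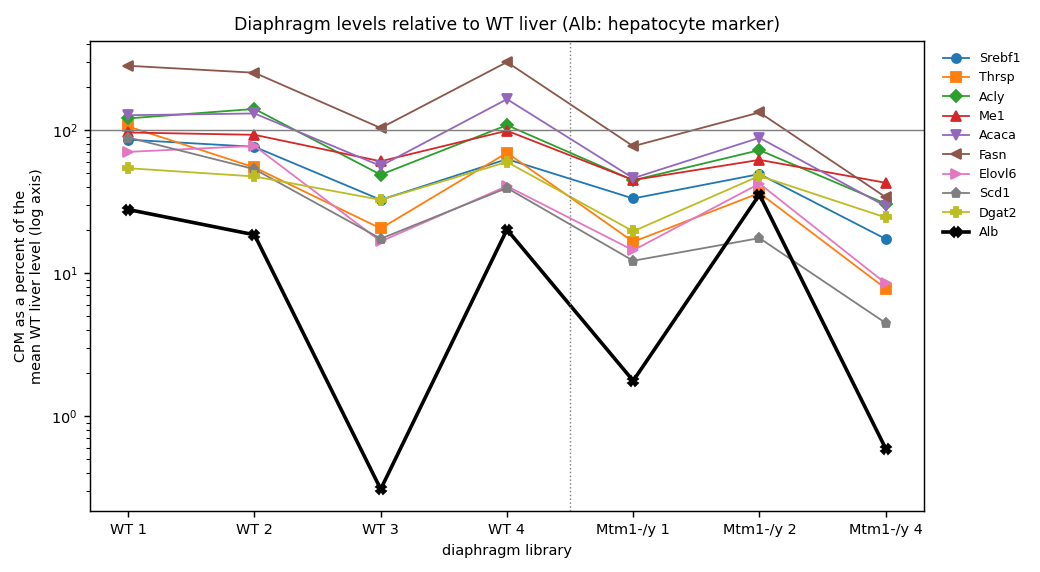
Diaphragm level of 9 genes and of Alb (thick black line) in each library as a percent of the mean WT liver level, on a log axis, with CPM scaled within each tissue; the grey line marks 100 percent and Pnpla3 is left out because its liver level is near 0. Alb falls to 0.309% in WT diaphragm 3, where the 9 genes stay between 16.7% and 104%.

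Fat markers had values below 0 in the diaphragm as well. All 12 white adipocyte markers had a negative log2 fold change with none called, and their sum was 815 to 3404 CPM in WT and 650.1 to 1405 CPM in Mtm1-/y libraries. Adipoq measured 124, 130.5, 53.8 and 276 and 102, 94.1 and 34.6 CPM, lowest in Mtm1-/y diaphragm 4 and next in WT diaphragm 3, and Fabp4 and Cfd had -0.63 (standard error 0.39, adjusted p = 0.65) and -0.80 (standard error 0.75, adjusted p = 0.792). Ucp1, a brown adipocyte marker, ranged over 1.79 to 61.8 and 0.758 to 32.8 CPM. With the white adipocyte score added to the fit, an alternative chosen after the data were seen, the 10 log2 fold changes stayed below 0, from -1.50 for Scd1 to -0.31 for Dgat2, and none passed. The part of fat in the diaphragm values was not tested further. Of 6 skeletal muscle markers 0 were called, Lhx8 of the brown list was at 0 in 2 WT libraries and Nppa of the cardiomyocyte list in 1. Of 37 tested genes of the wider pathway none was called and 33 were below 0, with log2 fold changes of -0.35 (standard error 0.31, adjusted p = 0.77) for Lpin1 and -0.37 (standard error 0.16, adjusted p = 0.489) for Acacb. Cholesterol synthesis genes were below 0 in 4 of 13, with -0.01 (standard error 0.20, adjusted p = 0.995) for Hmgcs1.

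In the heart, none of the 10 genes passed in edgeR, as against 0.00656% of all genes, or in DESeq2, and 9 of the 10 had a negative log2 fold change against 50.3% of all genes. An unadjusted p under 0.05 was reached by 3 genes in edgeR, Acaca, Fasn and Scd1 (background 8.88%). Acaca and Scd1 separated the genotypes without overlap (background 2.16%). The median log2 fold change was -0.55 over the 10 genes and 0.00 over all genes.

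Scd1 measured 599, 99.8, 94.6 and 118 CPM in WT heart 1 to 4 and 79.0, 81.1, 26.9 and 29.6 CPM in Mtm1-/y heart 1 to 4, with a log2 fold change of -2.07 (standard error 0.69, adjusted p = 0.546). WT heart 1 stood over 5 times above the other WT libraries, and those were all above the Mtm1-/y libraries. Acaca measured 13.8, 5.49, 5.71 and 6.59 CPM in WT and 3.91, 4.51, 3.79 and 3.62 CPM in Mtm1-/y libraries, with a log2 fold change of -1.0 (standard error 0.30, adjusted p = 0.546). Fasn measured 357, 68.2, 111 and 99.8 CPM in WT and 62.8, 88.6, 43.8 and 45.4 CPM in Mtm1-/y libraries, with a log2 fold change of -1.40 (standard error 0.50, adjusted p = 0.546), and overlapped through Mtm1-/y heart 2. Without WT heart 1 the log2 fold changes were -0.95 (standard error 0.40, adjusted p = 0.619) for Scd1, -0.58 (standard error 0.15, adjusted p = 0.531) for Acaca and -0.63 (standard error 0.27, adjusted p = 0.619) for Fasn.

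Of the remaining genes, Elovl6 ranged over 2.03 to 9.98 CPM in WT and 1.73 to 2.46 CPM in Mtm1-/y libraries, with -0.96 (standard error 0.50, adjusted p = 0.55) and, without WT heart 1, -0.14 (standard error 0.23, adjusted p = 0.823), and Pnpla3 over 1.43 to 5.03 and 1.31 to 2.26 CPM, with -0.75 (standard error 0.36, adjusted p = 0.546). Thrsp had -0.36 (standard error 0.31, adjusted p = 0.635), Srebf1 -0.18 (standard error 0.21, adjusted p = 0.709) and Acly -0.28 (standard error 0.22, adjusted p = 0.608). Me1 measured 81.5 to 113 CPM in WT and 96.8 to 114 CPM in Mtm1-/y libraries, with 0.01 (standard error 0.11, adjusted p = 0.964), and Dgat2 measured 123 to 165 and 129 to 165 CPM, with -0.01 (standard error 0.12, adjusted p = 0.968).

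White adipocyte markers had the same order of genotypes in the heart. Of 11 tested, 8 were lower in Mtm1-/y mice without overlap of the groups, 0 passed in edgeR and 7 passed in DESeq2, and Adrb3 was under the filter on low counts. Adipoq measured 21.7, 6.88, 8.13 and 22.4 CPM in WT and 3.22, 2.85, 1.65 and 2.86 CPM in Mtm1-/y libraries, and Plin1, which coats the fat cell's lipid droplet, measured 18.6, 4.69, 8.86 and 21.3 and 1.81, 2.06, 0.766 and 1.66 CPM. The summed level, 588 to 743 against 564 to 676 CPM, is made up mostly of Fabp4, which had a log2 fold change of 0.19 (standard error 0.12, adjusted p = 0.566), and Lipe had -0.33 (standard error 0.16, adjusted p = 0.546). Ucp1 stood at 28.1 CPM in WT heart 1 and at 0 to 3.33 CPM in the other heart libraries. With the white adipocyte score added to the fit, the log2 fold changes of Scd1, Fasn, Acaca, Elovl6, Acly and Srebf1 were above 0 and none passed, with 0.90 for Scd1. The part of fat in the heart values was not tested further. Of 15 hepatocyte markers, summing to 22.1 to 226 CPM in WT and 69.4 to 194 CPM in Mtm1-/y libraries, 0 were called, 13 reached an unadjusted p under 0.05, 8 were higher in Mtm1-/y mice without overlap and the median log2 fold change was 2.31. DESeq2 called 2 of them higher and 1 lower. Alb measured 25.1, 0.951, 2.59 and 2.79 CPM in WT and 102, 46.6, 27.9 and 36.5 CPM in Mtm1-/y hearts, and the part of these markers in the heart values was not tested. Of 6 cardiomyocyte markers 0 were called. Ambp and Cps1 of the hepatocyte list were each at 0 in 1 WT heart, Lhx8 of the brown list in 7 of the 8 hearts, and Ucp1 and Otop1 in 2 and 1 of them. Of 35 tested genes of the wider pathway 0 were called and 18 were below 0, with Acacb at 0.10 (standard error 0.10, adjusted p = 0.693), Pnpla2 at -0.08 (standard error 0.12, adjusted p = 0.785) and Lpin1 at 0.10 (standard error 0.12, adjusted p = 0.723). Of 11 tested genes of cholesterol synthesis 3 were below 0, with Hmgcs1 at 0.18 (standard error 0.11, adjusted p = 0.565) and none called.

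**Figure D4:**
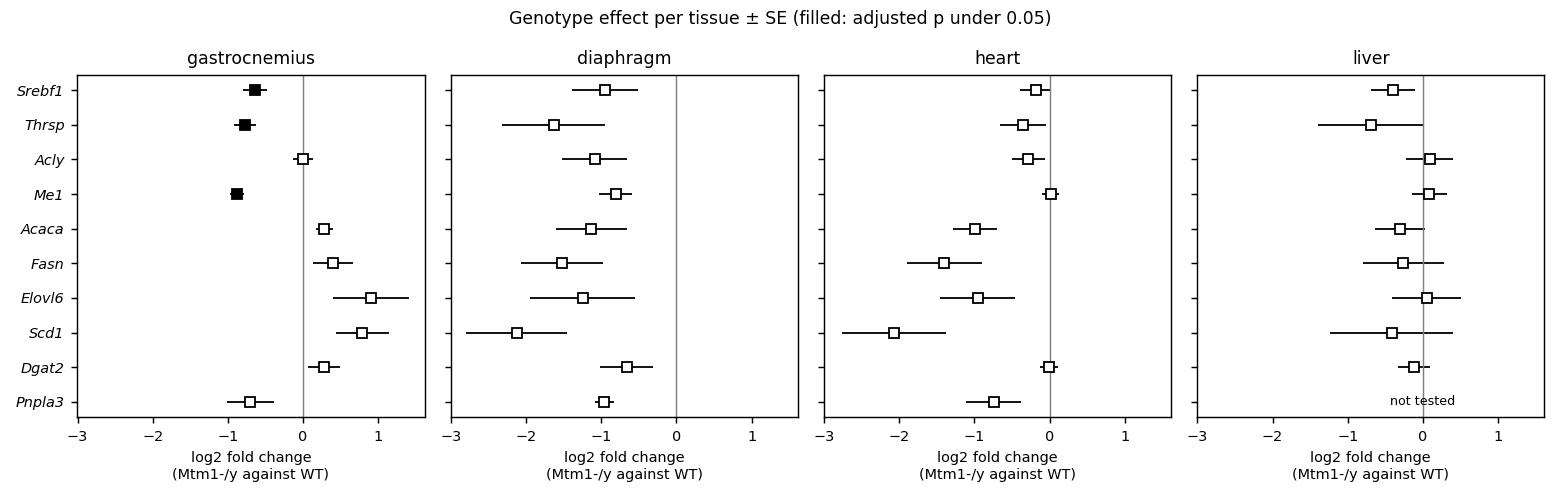
Log2 fold change of Mtm1-/y against WT for each gene in each tissue, with bars of 1 SE on either side from edgeR and filled squares for an adjusted p under 0.05. The 3 filled squares are Srebf1, Thrsp and Me1 in gastrocnemius, and the diaphragm squares lie left of 0 for all 10 genes.

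In the liver, no gene passed the test between the genotypes. Of the 9 genes tested 0 passed, at an unadjusted p under 0.05 stood 0 (background 4.24%), 6 of the 9 had a negative log2 fold change (background 48.9%), and DESeq2 called 0, against 0.130% of all genes lower and 0.0326% higher. No gene of the whole table was called by edgeR in this tissue. Mtm1, the deleted gene, was thus not called either. It measured 12.5 CPM or more in WT livers and 3.37 to 6.39 CPM in Mtm1-/y livers, without overlap. Because this test missed the known difference in Mtm1, the 0 calls cannot show that the lipogenesis genes were unchanged in liver. Pnpla3, at 0.54, 0.258 and 0.188 CPM in WT and 0.611, 0.108, 0.162 and 0.269 CPM in Mtm1-/y livers, was under the filter on low counts and was not tested.

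The spread between livers of 1 genotype was wide and ran through most of the genes together. Scd1 measured 8121, 7159 and 1298 CPM in WT liver 1 to 3 and 5751, 922, 1359 and 8524 CPM in Mtm1-/y liver 1 to 4, with a log2 fold change of -0.42 (standard error 0.82, adjusted p = 0.972). WT liver 1 and 2 and Mtm1-/y liver 1 and 4 were high and the other three low, so that the highest liver had 9.25 times the lowest. Fasn measured 629, 435 and 228 CPM in WT and 738, 153, 202 and 343 CPM in Mtm1-/y livers, with a log2 fold change of -0.26 (standard error 0.54, adjusted p = 0.972) and a highest liver at 4.82 times the lowest. Elovl6 measured 91.0, 57.3 and 40.1 and 105, 23.1, 55.1 and 77.5 CPM, with 0.05 (standard error 0.46, adjusted p = 0.997). Mtm1-/y liver 1 was the highest of the 7 livers for 6 genes and Mtm1-/y liver 2 the lowest for 6.

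Thrsp measured 686, 128 and 124 CPM in WT and 411, 147, 117 and 98.7 CPM in Mtm1-/y livers, where WT liver 1 and Mtm1-/y liver 1 stood apart, with a log2 fold change of -0.69 (standard error 0.70, adjusted p = 0.969). Srebf1 ranged over 132 to 174 CPM in WT and 66.8 to 175 CPM in Mtm1-/y livers, with a log2 fold change of -0.40 (standard error 0.30, adjusted p = 0.969). Acly ranged over 176 to 276 and 133 to 354 CPM, with 0.09 (standard error 0.31, adjusted p = 0.983), and Acaca over 28.2 to 42.5 and 17.6 to 50.3 CPM, with -0.30 (standard error 0.33, adjusted p = 0.969). The Mtm1-/y livers enclosed the WT range for each of these 3 genes. Me1 ranged over 122 to 200.01 and 147 to 250.2 CPM, with 0.09 (standard error 0.23, adjusted p = 0.98). Dgat2, which had the smallest spread of the 10 with a highest liver at 1.84 times the lowest, measured 528, 538 and 606 and 567.73, 697, 379 and 409 CPM, with -0.12 (standard error 0.21, adjusted p = 0.972).

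As a description over the 7 livers, which share a library, a scaling and a depth for all genes, the log2 CPM of Fasn had a Pearson r of 0.976 with Pnpla3, 0.971 with Acaca, 0.913 with Acly, 0.89 with Elovl6 and 0.864 with Scd1. It was 0.724 with Thrsp, 0.585 with Srebf1, 0.526 with Me1 and -0.0577 with Dgat2. Pnpla3 had 3 to 21 counts per liver, so its value carries wide counting error. Of 9295 genes whose mean reached 5 CPM, the 5 with the highest r with Fasn were Agps, 6430548M08Rik, Golga1, Smchd1 and Nktr, at 0.986 to 0.993, and of 9296 genes those with the highest r with Pnpla3 were Ficd, Ino80e, Vps37c, Klhl18 and Txlna, at 0.979 to 0.983. Hepatocyte markers summed to 168069 to 188080.0 CPM in WT and 177928 to 205634 CPM in Mtm1-/y livers, and Alb and Ahsg had log2 fold changes of 0.24 (standard error 0.14, adjusted p = 0.969) and 0.13 (standard error 0.15, adjusted p = 0.969), with 0 of 15 called. White adipocyte markers summed to 26.2 to 27.5 and 22.2 to 40.6 CPM, with 0 of 6 tested called, Adipoq, Acvr1c, Cfd, Lep, Plin1 and Retn each at 0 in 2 to 5 livers, and Ucp1 and Otop1 of the brown list at 0 in all 7. Lhx8 was at 0 in 6 livers, Dio2 in 4, Cidea in 1 and Nppa in 4. Of 35 tested genes of the wider pathway 0 were called and 23 were below 0, with -0.56 (standard error 0.36, adjusted p = 0.969) for Lpin1 and 0.04 (standard error 0.11, adjusted p = 0.982) for Rxra, and of 13 genes of cholesterol synthesis 5 were below 0, with -0.06 (standard error 0.42, adjusted p = 0.994) for Hmgcs1.

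**Figure D5:**
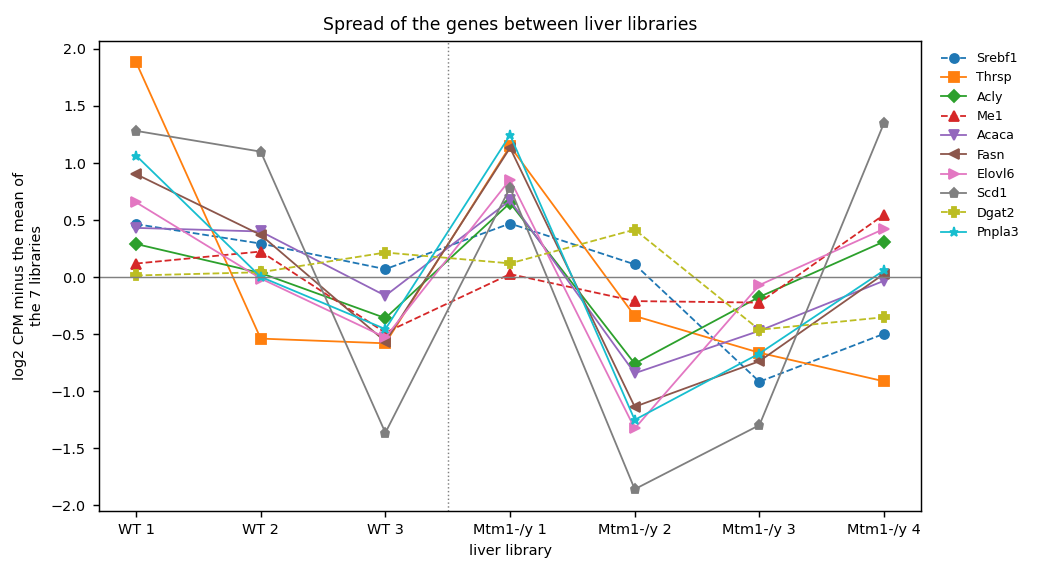
Log2 CPM of each gene in each liver library minus that gene's mean over the 7 libraries, WT left and Mtm1-/y right of the dotted line; dashed lines are Dgat2, Me1 and Srebf1. Most lines are high in WT liver 1 and Mtm1-/y liver 1 and low in WT liver 3 and Mtm1-/y liver 2, and both genotypes span the range.

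The genotype effects of the gastrocnemius and of the other tissues were compared by a test of the difference itself, in 1 fit of both tissues. Against the heart, 4 genes differed (background 19.8% in either direction). Acaca, Fasn and Scd1 had a higher log2 fold change in gastrocnemius (background 9.89%), with differences of 1.26 (standard error 0.33, adjusted p = 0.0155), 1.78 (standard error 0.60, adjusted p = 0.0499) and 2.84 (standard error 0.83, adjusted p = 0.0269), and Me1 a lower one (background 9.94%), with a difference of -0.91 (standard error 0.15, adjusted p = 0.00131). Without WT heart 1, Acaca and Me1 passed and Fasn and Scd1 did not, at 1.02 (standard error 0.41, adjusted p = 0.101) and 1.73 (standard error 0.59, adjusted p = 0.0572). Fasn and Scd1 were also lost without WT gastrocnemius 2 or 3, Mtm1-/y gastrocnemius 1, or Mtm1-/y heart 3 or 4, and Fasn alone without WT gastrocnemius 1 or 4, Mtm1-/y gastrocnemius 3 or 4, or Mtm1-/y heart 1, so that Fasn was lost without 11 of the 16 libraries.

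Against the diaphragm, 0 genes differed in edgeR (6 at an unadjusted p under 0.05, background 12.8%), and DESeq2 called Fasn and Scd1, against 0.858% of all genes, with edgeR differences of 1.94 (standard error 0.61, adjusted p = 0.234) and 2.92 (standard error 0.78, adjusted p = 0.154). The difference for Me1 was -0.06 (standard error 0.23, adjusted p = 0.941). Against the liver, Me1 was the one gene that differed, with a difference of -0.99 (standard error 0.26, adjusted p = 0.0371) against a background of 3.63%. That call was lost without WT gastrocnemius 2, 3 or 4, any of the 4 Mtm1-/y gastrocnemius libraries, WT liver 1 or 3, or Mtm1-/y liver 4, 10 of the 15 libraries in all, and without Mtm1-/y liver 1 the count was 2. The 3 comparisons share the gastrocnemius libraries.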

How the data were processed

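RNA was extracted from snap-frozen tissue and libraries were made from 350 ng with a stranded polyA kit. Per the paper's methods and the submitters' processing notes, the authors trimmed reads with cutadapt 1.10, used STAR 2.5.3a for alignment to mm10 and HTSeq 0.6.1p1 for counts of reads per gene (GENCODE M21, Ensembl 96). The strand setting is not given in the sources used here. The deposited values are raw counts per gene, taken as they stand.

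Counts were tested in R 4.3.3 with edgeR 4.0.16 (filterByExpr with a count minimum of 10, TMM, quasi-likelihood test, Benjamini-Hochberg adjustment over all genes tested), with a call at an adjusted p under 0.05. Each tissue was fitted on its own by genotype, both tissues together for differences of genotype effects, and the 15 WT libraries together for tissues. DESeq2 1.42.0 and the other settings in the closing section were alternatives. No 2 libraries agreed within sampling noise. The fits were tested on simulated data. Depth set counting precision, which reaches 3 to 21 counts for Pnpla3 in liver.

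Members and lists were chosen with earlier results of these data known. All members are named, with the leading or most abundant genes of each pathway list, abundant genes of the marker lists and markers at 0. Of the cardiomyocyte list only markers at 0 are named. Some genes of the pathway lists are not reported here by name. Adipoq, Plin1, Ucp1 and the marker genes named as rising or falling were named after their values were seen.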

Additional observations from a re-analysis of the deposited data

Results flagged for a closer look

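Of 60 groups of 4 libraries, 10 held a library far from the rest by Dixon's criterion. Its cutoff gives about 1 in 20 by chance for independent groups of normally distributed values. These groups are 10 genes in the same libraries, in CPM without logs, so that rate need not hold. WT liver and Mtm1-/y diaphragm, with fewer libraries, were not examined. In 6 of them it was WT heart 1, which was high for Scd1 (599 CPM), Fasn (357 CPM), Acly (122 CPM), Thrsp (55.4 CPM), Acaca (13.8 CPM) and Elovl6 (9.98 CPM). The other four were Elovl6 in Mtm1-/y gastrocnemius 3 (11.3 CPM, high), Me1 in WT diaphragm 3 (103 CPM, low), Pnpla3 in Mtm1-/y heart 2 (1.31 CPM, low) and Thrsp in Mtm1-/y liver 1 (411 CPM, high).

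The test of the difference between tissues found 5 genotype effects that differed. Between gastrocnemius and heart these were Scd1 (2.84), Fasn (1.78), Acaca (1.26) and Me1 (-0.91), and between gastrocnemius and liver Me1 (-0.99), all as differences of log2 fold changes.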

How the results depend on the processing

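Each comparison was refitted with DESeq2 size factors, without the filter on low counts, in DESeq2, with the replicate number as a block and without each library in turn. Over these and the further alternatives named here, 204 counts of genes called stayed within 1.5 times the reported count and 29 moved. DESeq2 called 3 genes in place of 0 in the diaphragm and 2 in place of 0 between gastrocnemius and diaphragm. With an absolute log2 fold change over 1 as a second criterion the gastrocnemius had 0 calls in place of 3, where 748 genes rose and 276 fell of all 15456. In 1 fit of all 30 libraries, Me1 was the 1 call among these genes in the gastrocnemius and in the diaphragm. In the diaphragm its log2 fold change was -0.83 (standard error 0.20, edgeR adjusted p = 0.0291). Of all 18498 genes in that fit, 1525 rose and 1400 fell in gastrocnemius, and 203 rose and 71 fell in diaphragm. With the white adipocyte score added to the fit 1 gene passed in the gastrocnemius, where 372 rose and 400 fell of all 15456. With the hepatocyte score 4 passed in the diaphragm, where 22 rose and 19 fell of all 16796. Without WT diaphragm 1, 2 and 4, an alternative chosen after seeing the data, 8 genes differed between WT liver and diaphragm and 2 between WT heart and diaphragm. The causes were not tested.

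Deviations of WT and Mtm1-/y libraries with the same number had correlations of -0.0407 to 0.0842 in gastrocnemius and -0.578 to 0.403 in diaphragm. The range was -0.439 to 0.196 in heart and -0.0385 to 0.23 in liver. With 3 or 4 pairs per tissue, these values cannot tell whether the numbers pair the libraries. With the replicate block, 0 genes differed between gastrocnemius and liver in place of 1, Fasn was lost between gastrocnemius and heart (1.46), and log2 fold changes that had not passed turned sign for Acly in gastrocnemius (-0.0175) and for Acly, Me1 and Elovl6 in liver (-0.0791, -0.0879 and -0.20). Fasn was also lost between gastrocnemius and heart with DESeq2 size factors (1.72) and without the filter (1.78).

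Signs of other log2 fold changes that had not passed turned as well. For Acly in gastrocnemius the value was -0.00399 in DESeq2, -0.0107 in the fit of all 30 libraries and -0.0669 with the white adipocyte covariate, and with that covariate Fasn was at -0.14, Elovl6 at -0.00728, Scd1 at -0.55 and Dgat2 at -0.12. In the heart the white adipocyte covariate gave 0.31 for Srebf1, 0.43 for Acly, -0.35 for Me1, 0.0483 for Acaca, 0.51 for Fasn, 0.42 for Elovl6 and 0.90 for Scd1.

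Without 1 library, the calls were 3 to 5 in gastrocnemius, 0 to 1 in diaphragm, 0 in heart and in liver, 2 to 4 between gastrocnemius and heart, 0 between gastrocnemius and diaphragm, 0 to 2 between gastrocnemius and liver and 4 to 7 between WT liver and diaphragm. Single genes whose sign turned were Acly in gastrocnemius (-0.145 to 0.0814), heart (-0.388 to 0.0307) and liver (-0.156 to 0.288), Dgat2 in heart (-0.0859 to 0.0504) and liver (-0.302 to 0.000166), Me1 in heart (-0.0799 to 0.0648) and liver (-0.107 to 0.224), Thrsp in heart (-0.523 to 0.0269) and liver (-1.37 to 0.619), Elovl6 in liver (-0.277 to 0.418) and Fasn in liver (-0.888 to 0.117). None of these had passed. Over single genes, 1497 values kept direction and side of the threshold, 52 lost and 12 gained a call, and 40 turned sign.

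The wide spread of diaphragm and liver libraries limits what these groups of 3 and 4 can show. Values near 0 counts, as for Pnpla3 in liver, carry counting error on top.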
